A study of Mus musculus with 6 samples.

Results

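The cytosolic ribosomal protein genes of the mouse heart and their processed pseudogenes were followed through ischaemia and reperfusion. Members were the protein-coding rows whose gene name begins with Rpl, Rps or Rplp and a digit, without the Rps6k kinases, and they numbered 55 of 8969 protein-coding genes. They comprised 25 large subunit genes, 18 small subunit genes, 3 genes of the ribosomal stalk, 3 paralogues, 5 pseudogenes whose names end in -ps and a number, and Rps19bp1. The last fits the naming rule but encodes a protein that binds Rps19 and is no part of the ribosome. Without it and the pseudogenes 49 genes were left, which are called ribosomal protein genes here. They include the 3 paralogues, of which Rpl7l1 takes part in large subunit assembly. Of the 55 members, 53 had spans overlapping the RefSeq gene of the same symbol by at least 50%, and RefSeq classed the 5 pseudogenes as pseudogene and the other 50 as protein-coding.

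RNA came from 6 isolated hearts of male mice that were perfused on a Langendorff apparatus, which feeds the coronary vessels of a heart outside the body. In 3 Sham hearts beating was not interrupted. In 3 I/R hearts cardioplegia, a solution that halts contraction, was applied for 30 min and was followed by 1 h of reperfusion. The labels give this treatment as ischaemia for 30 min and reperfusion for 1 h. Both groups were perfused, the sources used here do not give strain or age, and the titles call the hearts biological replicates. Of 16 cardiomyocyte markers 14 were listed and all were above the filter, and their summed level was 12088 to 13377 FPKM in Sham and 12553 to 12996 in I/R hearts. The most abundant marker alone averaged 9478 FPKM over the 6 hearts, so this sum says little of the other markers.

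Each cytosolic ribosome joins ribosomal RNAs with about equal numbers of copies of many small basic proteins, and the messenger RNAs for these proteins are among the most abundant in most tissues. These messengers begin with a run of pyrimidines, the TOP (terminal oligopyrimidine) motif, through which mTOR signalling sets how strongly they are translated without necessarily changing their amount. Copies of ribosomal protein messengers have been reverse transcribed into the genome many times, leaving intronless pseudogenes that share most of their sequence with the parent gene.

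The class of genes is shown first by the start of the messenger. RefSeq promoter windows (GRCm38.p6, 250 bases before to 50 bases from the start) matched 36 of the 55 members by symbol, among them 35 ribosomal protein genes and 0 pseudogenes. A run of at least 7 C or T was sought within 20 bases before or after a start, on the gene's own strand. It was present in 22 of those 35 genes (62.9%) and in 7430 of all 27025 genes in the table (27.5%). The search was chosen after the letters were seen. The letters CCGGAAGT, the core of a GABP site, were present on either strand of the whole window in 5 of the 35 genes (14.3%) and 1164 of all genes (4.31%), and AAGATGGC, the core of a YY1 site, in 3 (8.57%) and 862 (3.19%). CCGGAAGT read on its other strand holds a short pyrimidine run of its own, so the letters searched can overlap.

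The stretches below run from 30 bases before the start through the first 15 bases of the messenger, with the pyrimidine run in capitals. The first 5 are ribosomal protein genes with a run, Rpl15, Rps6, Rps10, Rplp2 and Rpl28, and the last 3 are members without one, the muscle paralogue Rpl3l (at the first of its 2 RefSeq starts), the paralogue Rpl7l1 and the abundant Rps3a1.
Rpl15 (chr14:18270972-18271016, minus strand): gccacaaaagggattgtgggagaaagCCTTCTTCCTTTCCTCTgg
Rps6 (chr4:86857353-86857397, minus strand): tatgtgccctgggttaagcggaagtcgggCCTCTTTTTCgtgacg
Rps10 (chr17:27635230-27635274, minus strand): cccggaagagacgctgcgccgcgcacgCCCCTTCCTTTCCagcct
Rplp2 (chr7:141447621-141447665, plus strand): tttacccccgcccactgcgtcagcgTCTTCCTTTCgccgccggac
Rpl28 (chr7:4792935-4792979, plus strand): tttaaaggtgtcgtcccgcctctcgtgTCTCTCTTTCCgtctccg
Rpl3l (chr17:24727796-24727840, plus strand): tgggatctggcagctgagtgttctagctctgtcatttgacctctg
Rpl7l1 (chr17:46782642-46782686, minus strand): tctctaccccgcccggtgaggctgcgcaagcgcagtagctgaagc
Rps3a1 (chr3:86142654-86142698, minus strand): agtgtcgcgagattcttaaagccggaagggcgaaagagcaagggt
In each of the first 5 the run spans the annotated start. This did not hold for all 22 genes counted. In Rpl5, Rpl39 and Rps15a the counted run ended before the start, and in Rplp0 it began after the start. The 22 are therefore not a count of messengers that begin with a run. Rpl15 has a run at its annotated start and Rps3a1 has none, and the levels of both were steady between the groups, as given below.

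Levels are FPKM (sequenced fragments relative to the length of the transcript and the library's total), summed over the listed transcripts of a gene. FPKM of protein-coding genes were scaled to totals of 7233171 to 9902397 reads per library, and the listed protein-coding transcripts held 36.8% to 39.9% of these totals. Members held 0.493% to 0.529% of the listed reads. Between 1 and 4 transcripts of each member were listed, other transcripts of the same genes were not analysed here, and a low level is therefore a level of the listed transcripts and not of the gene's whole output.

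Levels of the ribosomal protein genes were very uneven. Over the 6 hearts 3 genes, Rplp1, Rps3a1 and Rpl36, averaged more than 100 FPKM, 2 (Rpl7l1 and Rpl15) lay between 20 and 100, 9 between 5 and 20, 25 between 0.5 and 5, and 10 below 0.5 FPKM. The 3 most abundant genes gave 75.1% to 76.3% of all member reads in every heart and ranked 13 (Rplp1), 30 (Rps3a1) and 36 (Rpl36) among 8969 protein-coding genes. The median ribosomal protein gene had 1.31 FPKM. The pseudogenes Rpl9-ps6 at rank 226 and Rps12-ps3 at rank 354 were above all but the 3 leading ribosomal protein genes.

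**Figure D1:**
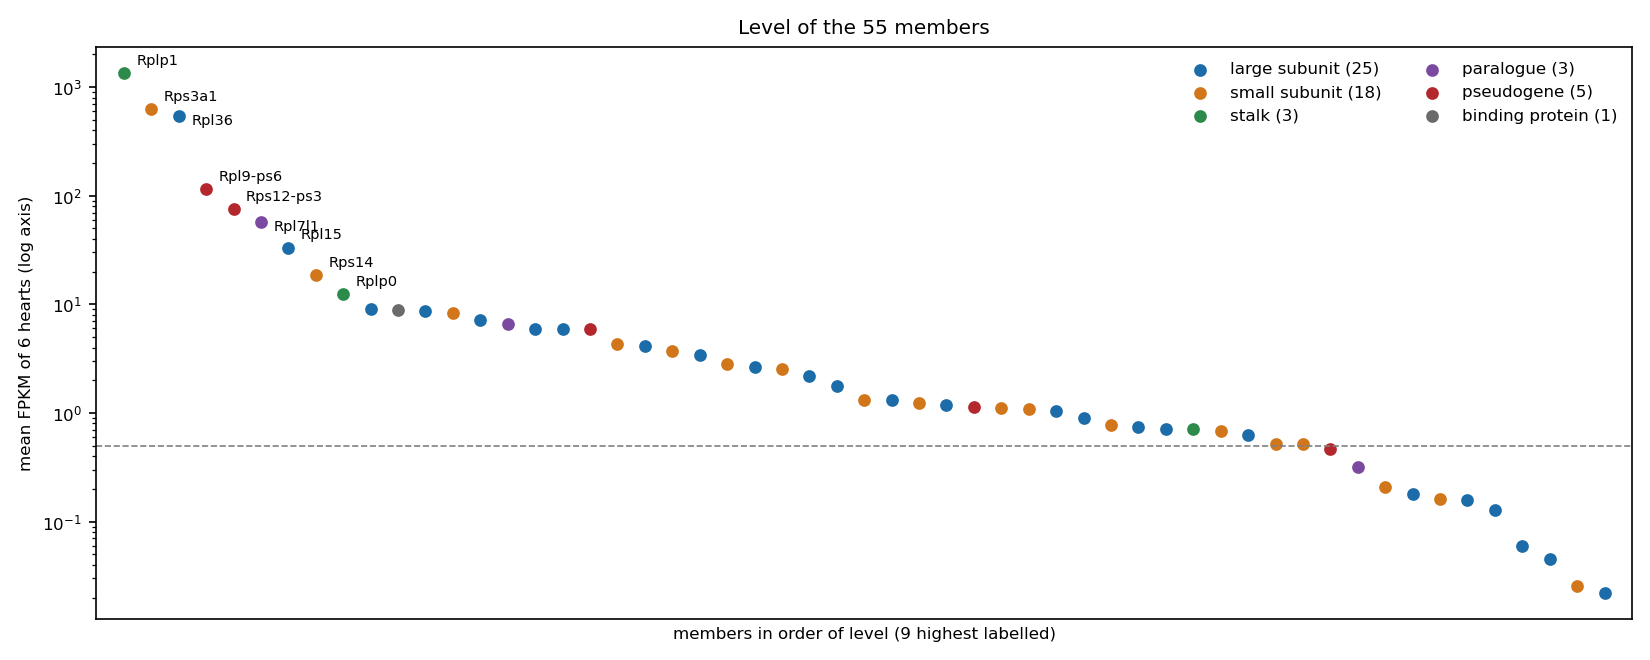
Mean FPKM of the 6 hearts for each of the 55 members, on a log axis, in order of level and coloured by role, with the 9 highest labelled; the dashed line is the filter of 0.5 FPKM. Rplp1 (1347 FPKM), Rps3a1 (623) and Rpl36 (536) stand above all other members, 2 pseudogenes follow, and 11 members lie under the line.

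The comparison of I/R with Sham asks whether the ribosomal protein messengers changed within 1 h of reperfusion. As a group they differed little. The summed FPKM of the 49 ribosomal protein genes was 2657, 2604 and 2717 in Sham hearts and 2877, 2719.8 and 2762 in I/R hearts, or 2659 ± 56.5 against 2786 ± 81.1 (SD, n = 3 each), a ratio of 1.05. All 3 I/R sums lay above all 3 Sham sums, the nearest being 2719.8 and 2717 FPKM. Without Rplp1, Rps3a1 and Rpl36 the sums were 216 ± 2.71 in Sham and 216 ± 5.06 in I/R hearts (SD, n = 3 each), and the groups overlapped. The paralogue Rpl7l1, at a mean of 57.0 FPKM, is part of these sums.

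Of the 55 members 44 passed the filter of a mean of 0.5 FPKM, 39 of them ribosomal protein genes. In the limma fit of log2(FPKM + 1) over all 12114 genes tested, 0 members passed an adjusted p of 0.05, and 0% of all genes did. At an unadjusted p under 0.05, 2 of 44 members passed, Rps12-ps3 and Rps23, both higher in I/R hearts, against 1023 of 12114 genes (8.44%). These 12114 genes include lncRNAs. Of the 5041 protein-coding genes in the same fit, 173 passed as higher in I/R hearts and 84 as lower. The 2 groups did not overlap in 3 members that were higher in I/R hearts (Rps12-ps3, Rps23 and Rps19bp1) and 1 that was lower (Rpl5), against 1656 of all genes tested (13.7%). Members were called or separated no more often than genes at large. The median difference of the 39 ribosomal protein genes was 0.00 on the log2 scale, with 20 above 0 and 19 below. That of all genes tested was -0.00219, and that of the protein-coding genes tested was 0.0207. Differences on the log2(FPKM + 1) scale understate changes of genes at low levels. In bulk RNA of a heart, fewer cells of a type and less RNA per cell cannot be told apart.

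**Figure D2:**
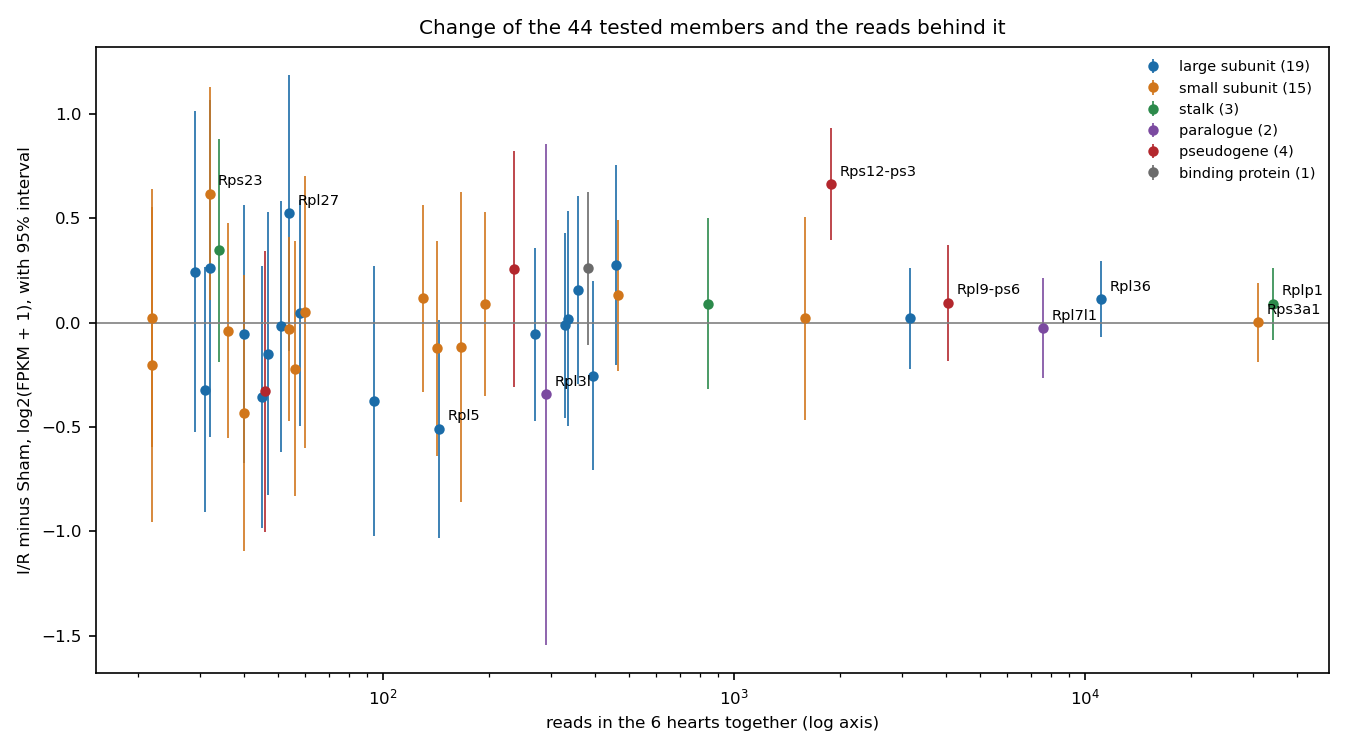
Difference between I/R and Sham on the log2(FPKM + 1) scale, with its 95% interval from limma, for the 44 tested members against the reads of the 6 hearts together (log axis), coloured by role. Among members with at least 500 reads Rps12-ps3, at 0.66, is the one whose interval lies away from 0.

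The stalk is the flexible arm of the large subunit that draws elongation factors to the ribosome. Rplp1 (chr9:61913284-61914542), one of its acidic phosphoproteins, measured 1272, 1296 and 1348 FPKM in Sham and 1457, 1324 and 1389 in I/R hearts. The groups overlapped, since I/R replicate 2 was below Sham replicate 3. With 34272 reads behind it Rplp1 was the most deeply measured member, and its difference was 0.09 ± 0.07 (SE), with a 95% interval from -0.08 to 0.26 (adjusted p = 0.791, limma).

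Rplp0, which anchors the stalk to the large subunit, measured 11.2, 12.4 and 12.1 FPKM in Sham and 15.6, 10.7 and 12.3 in I/R hearts. I/R replicate 1 was the highest and I/R replicate 2 the lowest of the 6, and the difference was 0.09 ± 0.17 (SE). Rplp2, the partner of Rplp1 in the stalk dimer, was listed at 0.419, 0.645 and 0.430 FPKM in Sham and 0.944, 1.30 and 0.530 in I/R hearts, on 34 reads in all. Its groups overlapped through I/R replicate 3, and the difference was 0.34 ± 0.23 (SE). Although the proteins of Rplp1 and Rplp2 pair in the stalk, the listed transcripts of these genes stood at mean levels of 1347 and 0.711 FPKM.

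Among the 25 large subunit genes Rpl36 (chr17:56613395-56614243) was far above the rest. It measured 531, 508 and 506 FPKM in Sham and 589.7, 531 and 552 in I/R hearts. I/R replicate 2 lay just below Sham replicate 1, and the other 2 I/R hearts were above every Sham heart. The difference was 0.11 ± 0.08 (SE), with a 95% interval from -0.07 to 0.30 (adjusted p = 0.752, limma).

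Rpl15 (chr14:18267823-18271391), a large subunit gene, was steady. It measured 32.7, 33.1 and 32.9 FPKM in Sham and 33.7, 33.1 and 33.4 in I/R hearts on 3161 reads. The groups overlapped, and the difference was 0.02 ± 0.10 (SE), with a 95% interval from -0.22 to 0.26. The interval is set by the spread that limma expects at this level and not by these 6 values alone.

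Rpl39, Rpl28 and Rpl34, further large subunit genes, averaged between 5 and 10 FPKM and overlapped between groups. Rpl39, which lines the tunnel through which the new peptide leaves, measured 9.24, 7.46 and 9.94 FPKM in Sham and 8.29, 7.71 and 9.39 in I/R hearts. Its difference was -0.06 ± 0.17 (SE), and Sham replicate 2 was the lowest of the 6 hearts.

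Rpl28 measured 5.34, 8.01 and 7.96 FPKM in Sham and 8.29, 5.90 and 7.27 in I/R hearts, and Rpl34 measured 6.37, 6.22 and 5.38 FPKM in Sham and 5.71, 5.05 and 7.12 in I/R hearts. In Rpl28 the lowest heart was Sham replicate 1 and in Rpl34 it was I/R replicate 2, and the highest was an I/R heart in both, so the groups lay across each other. Their differences were 0.02 ± 0.22 and -0.01 ± 0.19 (SE). Each of these 3 genes rests on 336 reads or fewer over the 6 hearts.

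Rpl5, which carries the small 5S ribosomal RNA into the large subunit and can bind Mdm2, the regulator of p53, was the large subunit gene with the smallest p. It measured 3.87, 3.36 and 5.30 FPKM in Sham and 3.12, 2.43 and 2.30 in I/R hearts, on 91 and 53 reads. Every I/R heart was below every Sham heart. The difference was -0.51 ± 0.22 (SE), and it did not pass the test (unadjusted p = 0.055, adjusted p = 0.596, limma). Rpl11, which joins Rpl5 and the same RNA, measured 1.74, 1.24 and 0.886 FPKM in Sham and 1.51, 0.451 and 1.33 in I/R hearts. Its groups overlapped, with a difference of -0.15 ± 0.29 (SE) on 47 reads. Rpl11 was chosen for its partnership with Rpl5 after the values were seen.

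The other large subunit genes named by their p lay at low levels. Rpl27 measured 2.29, 1.16 and 2.67 FPKM in Sham and 4.11, 2.45 and 3.38 in I/R hearts, a difference of 0.52 ± 0.28 (SE) on 54 reads. Rpl37 measured 3.27, 1.99 and 2.48 FPKM in Sham and 1.71, 1.08 and 2.60 in I/R hearts, a difference of -0.38 ± 0.27 (SE) on 94 reads. Rpl14 measured 0.801, 1.03 and 1.51 FPKM in Sham and 0.773, 0.223 and 1.01 in I/R hearts, a difference of -0.36 ± 0.26 (SE) on 45 reads. In none of these 3 genes were the groups apart, and 1 gene was on the higher side while 2 were on the lower. Over the 19 large subunit genes tested the median difference was -0.01, with 9 above 0 and 10 below.

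Among the 18 small subunit genes Rps3a1 (chr3:86137940-86142702) held nearly all the reads, 31132 of 34152. It measured 639.5, 585 and 643 FPKM in Sham and 608, 654 and 607 in I/R hearts. The means, 623 ± 32.7 and 623 ± 26.7 (SD, n = 3 each), were alike and the groups lay across each other. The difference was 0.00 ± 0.08 (SE), with a 95% interval from -0.19 to 0.19 (adjusted p = 0.998, limma).

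Rps14 measured 16.8, 16.8 and 19.4 FPKM in Sham and 22.8, 18.5 and 17.4 in I/R hearts over 4 listed transcripts, a difference of 0.13 ± 0.15 (SE). Rps20 measured 7.55, 8.51 and 8.69 FPKM in Sham and 6.28, 9.13 and 10.1 in I/R hearts, a difference of 0.02 ± 0.20 (SE). The I/R hearts held both the lowest and the highest value of Rps20. Rps6, the substrate of the S6 kinases downstream of mTOR, measured 4.37, 4.25 and 3.78 FPKM in Sham and 3.85, 5.25 and 4.37 in I/R hearts. Its groups overlapped, with a difference of 0.09 ± 0.19 (SE). These values are of messenger RNA and say nothing of the phosphorylation of Rps6.

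Rps10, a protein that is ubiquitinated when ribosomes collide, measured 3.96, 3.83 and 3.75 FPKM in Sham and 3.49, 2.57 and 4.50 in I/R hearts, a difference of -0.12 ± 0.22 (SE). The Sham hearts lay close together and inside the range of the I/R hearts. Rps29 measured 2.33, 3.72 and 3.19 FPKM in Sham and 2.001, 2.02 and 3.60 in I/R hearts, a difference of -0.22 ± 0.26 (SE). Rps15a measured 1.12, 1.98 and 1.54 FPKM in Sham and 0.620, 0.536 and 1.62 in I/R hearts, a difference of -0.43 ± 0.28 (SE). For Rps29 and Rps15a, 2 of 3 I/R hearts were below all Sham hearts and I/R replicate 3 was not.

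Rps23, which sits at the decoding centre of the small subunit, was the ribosomal protein gene with the smallest p, on 32 reads. It measured 0.108, 0.443 and 0.443 FPKM in Sham, from 1, 4 and 3 reads, and 0.833, 1.32 and 0.954 in I/R hearts, from 6, 11 and 7 reads. Every I/R heart was above every Sham heart. The difference was 0.62 ± 0.22 (SE), and it did not pass after adjustment (unadjusted p = 0.0247, adjusted p = 0.513, limma). Over the 15 small subunit genes tested the median difference was 0.00, with 8 above 0 and 7 below.

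The paralogues are second copies with a coding role of their own. Rpl7l1 (chr17:46773907-46782656), a relative of Rpl7 that takes part in large subunit assembly, measured 54.7, 59.5 and 58.5 FPKM in Sham and 59.4, 56.5 and 53.6 in I/R hearts. The groups lay across each other on 7602 reads, and the difference was -0.03 ± 0.10 (SE), with a 95% interval from -0.26 to 0.21. Rpl7 itself was listed at a mean of 1.31 FPKM on 58 reads.

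Rpl3l (chr17:24727820-24736143), which replaces Rpl3 in ribosomes of heart and skeletal muscle, varied widely between hearts of the same group. It measured 13.3, 3.97 and 5.39 FPKM in Sham and 4.92, 9.28 and 2.64 in I/R hearts. Sham replicate 1 was the highest of the 6, I/R replicate 2 the next, and I/R replicate 3 the lowest. Both listed transcripts followed this order at their upper end, with 72 and 37 reads in Sham replicate 1 and 37 and 28 in I/R replicate 2, against 24 and 9 in Sham replicate 2. The difference was -0.34 ± 0.51 (SE), with a 95% interval from -1.54 to 0.85, and without Sham replicate 1 it was 0.10. Rpl3 was not analysed here, so the exchange of the 2 forms could not be followed. The third paralogue, Rpl36al, was below the filter.

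The 5 pseudogenes were taken as single-exon copies with a length equal to the genomic span. The read totals were set under this assumption, so the lengths recovered from the values do not test it. Pseudogenes of each parent were counted by RefSeq names made of the parent's symbol, -ps and an optional number. There were 23 such names for Rps12, 14 for Rpl7a, 9 for Rpl9, 6 for Rpl10 and 3 for Rpl36a. Reads of a pseudogene can come from its parent or from another copy, and the sources used here do not say how reads that match several places were counted. The same uncertainty holds for ribosomal protein genes with copies. Counted in the same way, RefSeq names 10 pseudogenes after Rpl36, 1 after Rplp1 and 0 after Rps3a1. Copies under other names were not counted, so a low count does not mean that a gene has few copies. The parents Rps12, Rpl7a, Rpl9, Rpl10 and Rpl36a were not analysed here, so the planned comparison of each pseudogene with its parent was not run.

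Rps12-ps3 (chr19:59322290-59322783, plus strand, 494 bases) had the smallest p of the 44 tested members. It measured 56.4, 55.8 and 62.1 FPKM in Sham, from 276, 266 and 222 reads, and 83.4, 101 and 93.4 in I/R hearts, from 317, 446 and 361 reads. Every I/R heart was above every Sham heart, and the nearest values of the groups were 62.1 and 83.4. The means were 58.1 ± 3.48 and 92.8 ± 9.03 FPKM (SD, n = 3 each). The difference was 0.66 ± 0.11 (SE), with a 95% interval from 0.40 to 0.93. It did not pass after adjustment over all genes (unadjusted p = 0.000649, adjusted p = 0.385, limma). The exact two-sided permutation test of this gene gave p = 0.1, the smallest that the 20 regroupings of 3 against 3 hearts allow.

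Rps12-ps3 lies inside Pdzd8 on the opposite strand. Pdzd8, a lipid transfer protein of the endoplasmic reticulum, had 35 reads in the 6 hearts together, against 1888 for Rps12-ps3. The Sham hearts gave 6, 3 and 2 of its reads and the I/R hearts 10, 7 and 7, so that the host, at 0.0562 against 0.140 FPKM, was also higher in all I/R hearts. Pdzd8 was below the filter and was not tested, and its part in the values of the pseudogene was not tested.

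Rpl9-ps6 (chr19:32465885-32466575, minus strand, 691 bases) had the highest level of the pseudogenes and the groups lay across each other. It measured 112, 101 and 121 FPKM in Sham and 119, 131 and 107 in I/R hearts, a difference of 0.09 ± 0.12 (SE) on 4060 reads. Rpl10-ps3 (chr9:50344201-50344968, minus strand) measured 6.05, 5.94 and 3.96 FPKM in Sham and 4.91, 7.76 and 6.99 in I/R hearts, a difference of 0.26 ± 0.24 (SE). In Rpl10-ps3 2 I/R hearts were above every Sham heart and I/R replicate 1 was not.

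Rpl7a-ps5 (chr17:57838427-57839233, minus strand), which lies within the span of Cntnap5c, measured 0.626, 1.54 and 2.06 FPKM in Sham and 0.645, 0.836 and 1.11 in I/R hearts. Its groups overlapped through Sham replicate 1, and the difference was -0.33 ± 0.28 (SE) on 46 reads. Rpl36a-ps1 (chr14:98993870-98994318, minus strand) had 10 reads and was below the filter. The 4 tested pseudogenes thus ran from -0.33 to 0.66, with 3 above 0 and 1 below.

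**Figure D3:**
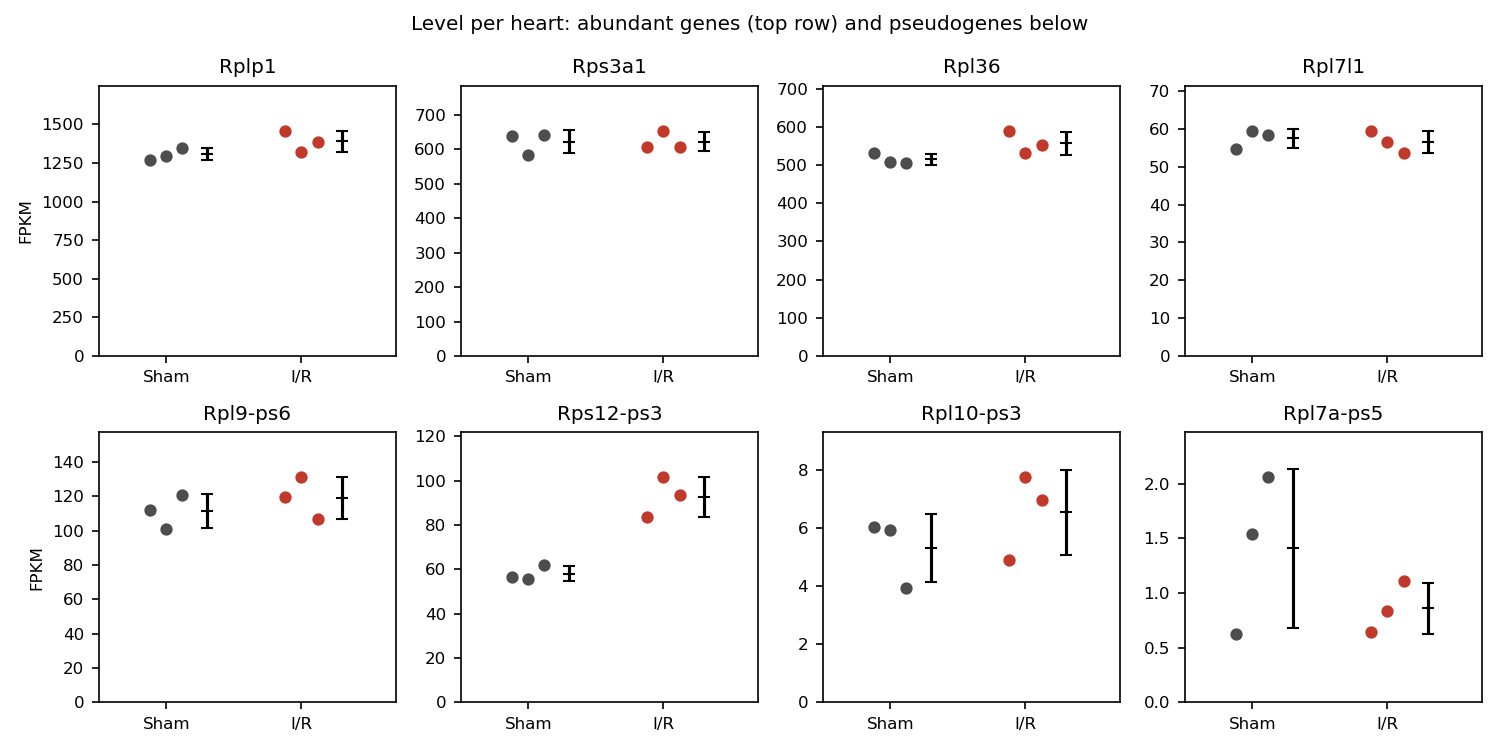
FPKM in each heart (points; Sham grey, I/R red) with mean and SD (black) for Rplp1, Rps3a1, Rpl36 and Rpl7l1 in the top row and the 4 tested pseudogenes below, each axis starting at 0. In Rps12-ps3 all 3 I/R hearts (83.4 to 101 FPKM) lie above all 3 Sham hearts (55.8 to 62.1), and in the other 7 panels the groups overlap.

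Rps18-ps4, a ribosomal protein pseudogene listed as a lncRNA and so outside the members, differed in the other direction. It measured 3.004, 2.41 and 3.68 FPKM in Sham and 1.68, 0.359 and 1.98 in I/R hearts. The groups did not overlap, and the difference was -0.85 ± 0.34 (SE) on 34 reads (unadjusted p = 0.0405, adjusted p = 0.569, limma). It was chosen after its values were seen.

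Rps19bp1, the Rps19-binding protein, measured 8.80, 7.67 and 7.59 FPKM in Sham and 9.0003, 10.5 and 9.91 in I/R hearts. All I/R hearts were above all Sham hearts, the nearest values being 8.80 and 9.0003, and the difference was 0.26 ± 0.15 (SE; unadjusted p = 0.137, adjusted p = 0.709, limma) on 382 reads.

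The 10 ribosomal protein genes below the filter, among them Rpl8, Rpl10a, Rpl13, Rpl31, Rpl35, Rps26 and Rps28, had 1 to 20 reads each over the 6 hearts. The other tested members, such as Rps9 at 0.519 FPKM and Rpl18 at 5.95 FPKM, all overlapped between groups. Of all 49 ribosomal protein genes 29 had under 100 reads, 13 had 100 or more but under 500, and 7 had at least 500. In the 7 genes with at least 500 reads the differences ran from -0.03 to 0.11 with a median of 0.02.

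Some members share their locus with a transcript on the other strand. Rpl30 (chr15:34440505-34443640, minus strand), a large subunit gene, had 29 reads, whereas D730044K07Rik (chr15:34442980-34444812, plus strand), which overlaps its start over 661 bases, had 4954. D730044K07Rik measured 187, 177 and 193 FPKM in Sham and 186, 189 and 173 in I/R hearts, with a difference of -0.03 ± 0.09 (SE). FPKM of lncRNAs and of protein-coding genes were scaled to different totals, so only reads are compared between them. The sources used here do not say whether the counting used strand, and reads of a gene and of its partner on the other strand then cannot be told apart.

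**Figure D4:**
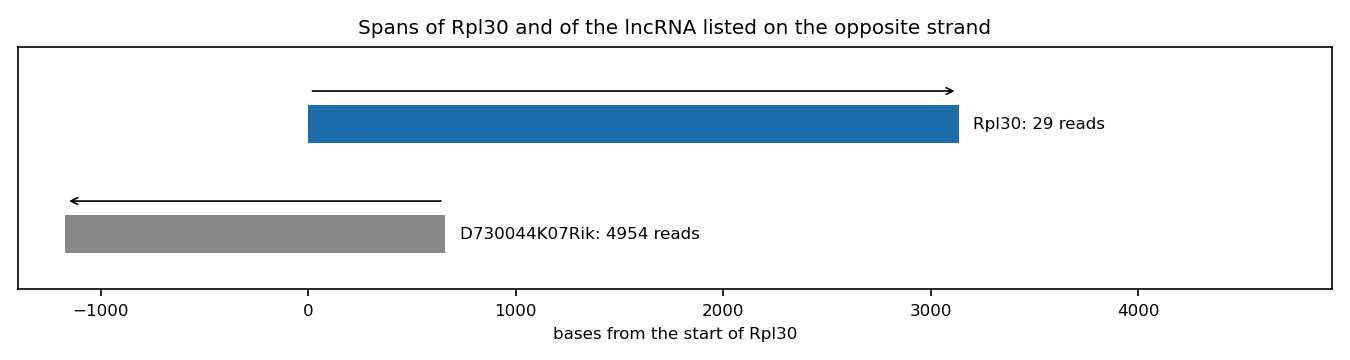
Spans of Rpl30 (blue) and of the lncRNA D730044K07Rik on the opposite strand (grey), in bases from the start of Rpl30, with arrows for the direction of transcription and the reads of the 6 hearts together. D730044K07Rik has 4954 reads against 29 for Rpl30, and the spans share 661 bases.

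In 11 other overlaps the partner held fewer reads than D730044K07Rik. In 8 of these the partner was a protein-coding gene on the opposite strand, with Rpl15, Rpl18, Rpl23a, Rpl28, Rpl31, Rpl35, Rpl5 and Rps28 facing Nkiras1, Sphk2, Tlcd1, Ube2s, Tbc1d8, Arpc5l, Fam69a and Kank3. The others were Rps12-ps3 in Pdzd8, Rps10 with the lncRNA Gm15420, and Rpl36al with Gm49383 on the same strand.

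Ribosomal protein genes that carry other names were also followed. Rack1, the scaffold on the small subunit head, measured 0.209, 0.502 and 0.478 FPKM in Sham and 0.629, 1.24 and 0.795 in I/R hearts, a difference of 0.43 ± 0.22 (SE; adjusted p = 0.647, limma), and the groups did not overlap. Rpsa had a difference of -0.24 ± 0.20 (SE), and Fau was below the filter. Over the 3 tested genes of this list the median was -0.24, with 1 above 0 and 2 below.

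No gene of the related translation lists passed the adjusted threshold. Of the 6 elongation factors tested 0 passed, with a median difference of 0.03 (3 above 0 and 3 below), and Eef1d, an exchange factor of elongation, had the smallest p at -0.26 ± 0.24 (SE). Of the 23 initiation factors tested 0 passed, with a median of 0.01 (12 above 0 and 11 below), and Eif2s2, a subunit of the factor that brings the initiator tRNA, had the smallest p at 0.43 ± 0.26 (SE). Of 15 other TOP messengers tested 0 passed, with a median of -0.04, and this list shares Rack1 and Rpsa with the genes above.

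Of 46 ribosome biogenesis genes tested 0 passed, with 25 above 0 and 21 below and a median of 0.02. Ubtf, the factor that opens ribosomal DNA for RNA polymerase I, measured 4.75, 5.33 and 4.93 FPKM in Sham and 2.93, 3.93 and 3.23 in I/R hearts. Every I/R heart was below every Sham heart, and the difference was -0.47 ± 0.18 (SE; unadjusted p = 0.0382, adjusted p = 0.559, limma). Of 12 ribosome quality control genes tested 0 passed, with a median of 0.03, and Ascc3, a helicase that splits collided ribosomes, stood at 0.52 ± 0.24 (SE).

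Of 16 genes of mTOR signalling to translation tested 0 passed, with 6 above 0 and 10 below and a median of -0.07. Mknk1, a kinase of the cap-binding protein, measured 1.22, 0.999 and 1.33 FPKM in Sham and 0, 0.271 and 0.616 in I/R hearts, a difference of -0.78 ± 0.24 (SE) on 16 reads (unadjusted p = 0.0141, adjusted p = 0.471, limma). Tsc2, a brake on mTOR, stood at -0.57 ± 0.20 (SE) on 24 reads and Akt2, a kinase upstream of it, at 0.34 ± 0.15 (SE) on 2116 reads.

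Of the 3 tested genes of the p53 axis to which free ribosomal proteins are linked, Cdkn1a, the cell cycle inhibitor p21, measured 8.11, 14.8 and 10.5 FPKM in Sham and 14.1, 23.3 and 20.2 in I/R hearts. The groups overlapped, and the difference was 0.74 ± 0.27 (SE; unadjusted p = 0.0274, adjusted p = 0.527, limma). Mdm4, which holds p53 back, stood at -0.46 ± 0.20 (SE), and the median of the 3 genes was 0.24. Of the 4 tested transcription factors of ribosomal protein promoters Myc, a driver of ribosome production, measured 3.71, 4.08 and 2.90 FPKM in Sham and 6.48, 13.0 and 11.7 in I/R hearts. All I/R hearts were above all Sham hearts, with a difference of 1.28 ± 0.28 (SE) on 135 reads that did not pass after adjustment (unadjusted p = 0.00254, adjusted p = 0.386, limma). The median of the 4 factors was 0.17, and the ribosomal protein genes in the same hearts had a median difference of 0.00.

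Markers of other cells are given beside these values. Fibroblast markers (9 of 10 listed) summed to 364 to 450 FPKM in Sham and 476 to 520 in I/R hearts, and 6 of 7 tested were above 0. Macrophage markers (6 of 10 listed) summed to 922 to 1104 in Sham and 1145 to 1239 in I/R hearts, and 6 of 6 tested were above 0. Endothelial markers (6 of 10 listed) summed to 100.4 to 129 and 119 to 152, with overlapping groups, and blood markers (5 of 10 listed) to 2.53 to 6.96 and 2.14 to 6.66, which overlapped as well. Cardiomyocyte markers had a median difference of -0.21, with 4 of 14 above 0 and 10 below. In 2 of these 14 the groups did not overlap, both lower in I/R hearts, against 13.7% of all genes tested in either direction. Of these 5 lists 0 genes passed the adjusted threshold, the fibroblast marker Col1a2 was at 0 in 5 of 6 hearts, and their part in the values of Rps12-ps3, Rpl5 and Rps23 was not tested.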

How the data were processed

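RNA-seq of 6 mouse hearts, 3 Sham and 3 I/R grouped by the treatment given in the labels, was analysed. Per the labels' protocols, libraries were prepared from poly(A) RNA with NEBNext reagents. The submitters' processing notes list HISAT2 2.1.0, HTSeq 0.10.0, bcl2fastq 2.19.1.403 and fastp 0.23.0, and as builds mm10, GRCm38 and GRCm39, with no role for each. The authors deposited FPKM for every transcript and library. The sources used here name no annotation, strand setting or handling of reads with several matches.

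Of 21198 rows 40 repeats were dropped, and FPKM were summed over the transcripts of each gene. Coordinates were taken from the table, and comparison with RefSeq placed them on GRCm38. Reads behind each FPKM were recovered as whole multiples (within 0.001) for 11744 of 11745 protein-coding rows and 9413 of 9413 lncRNA rows. The read totals of protein-coding rows were set so that 9 genes named as pseudogenes, taken as single-exon, gave whole reads. Read counts of protein-coding genes rest on this assumption. For rows with few reads, the count and the length are known only up to a shared whole factor.

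Genes averaging 0.5 FPKM or more were fitted as log2(FPKM + 1) with limma 3.58.1 in R 4.3.3, with group as the factor, a variance trend and two-sided tests. P-values of all 12114 genes were adjusted together by Benjamini-Hochberg, with a threshold of 0.05. The fit was tested on simulated data in which only genes with many reads were changed. That test does not cover changes in members with few reads. Tables were handled in Python 3.11.15 with pandas 2.3.3, numpy 2.4.6 and scipy 1.17.1, and plots were drawn with matplotlib 3.10.9.

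The members and the lists were chosen with earlier results of these data known. Genes named were the 6 most abundant large subunit, small subunit and pseudogene members, every tested stalk protein and paralogue, the 4 members in each direction with the smallest p outside the pseudogenes, the 3 in each direction among pseudogenes, and up to 3 genes of each related list. Some items that this rule named are not reported here. Alternatives were other pseudocounts, filters, scalings and variance models, protein-coding genes alone, the most abundant transcript, voom on recovered reads, a replicate block, and each heart left out. The comparison of Rpl3l with Rpl3 and of pseudogenes with parents was not run, because those genes were not analysed here. Replicate numbers were not treated as pairs, because same-numbered hearts deviated together with correlations of 0.153, 0.0283 and 0.0287 and not all were above 0.1.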

Additional observations from a re-analysis of the deposited data

How the results depend on the processing

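Under 17 alternatives 0 genes passed the adjusted threshold, including the limma voom fit on recovered reads. With the replicate block, 0 members passed, 1125 genes in place of 1023 had an unadjusted p under 0.05, and Rps12-ps3 stood at 0.66 on the log2 scale with an adjusted p of 0.335. The difference of Rps12-ps3 ran from 0.60 to 0.74 and kept its direction throughout. The ratio of the summed ribosomal protein FPKM was computed after quantile normalization, with the most abundant transcript and with each heart left out. It ran from 1.03 to 1.06, and it was not computed under the other alternatives. Of the 28 named members 17 kept their direction in every alternative that could be fitted, though the size of many moved by over 1.5 times. Over these alternatives Rps23 ran from 0.49 to 1.6999 (with voom), Rplp2 from 0.21 to 0.73, Rpl14 from -0.84 to -0.15 (the latter without I/R replicate 2), Rps15a from -0.81 to -0.29, Rpl37 from -0.58 to -0.18, Rpl27 from 0.29 to 0.73, Rps29 from -0.42 to -0.11, Rpl7a-ps5 from -0.59 to -0.13, Rpl10-ps3 from 0.09 (without Sham replicate 3) to 0.42, Rps14 from 0.02 (without I/R replicate 1) to 0.21, Rpl9-ps6 from 0.02 to 0.17, Rpl36 from 0.07 to 0.15, Rplp1 from 0.06 to 0.12, Rpl5 from -0.64 to -0.36 and Rps19bp1 from 0.21 to 0.32. The other 11 had differences near 0 or, in Rpl3l, a wide spread, and changed sign at least once. Rpl15 was -0.0287 with its most abundant transcript and -0.00819 with voom, and Rps3a1 was -0.0605 after quantile normalization. With each heart left out in turn, Rpl28 ran from -0.15 to 0.13, Rpl34 from -0.13 to 0.0820, Rpl39 from -0.17 to 0.0206, Rpl3l from -0.73 to 0.10, Rpl7l1 from -0.0620 to 0.0108, Rplp0 from -0.0470 to 0.20, Rps10 from -0.28 to 0.0355, Rps20 from -0.10 to 0.20, Rps3a1 from -0.0433 to 0.0253 and Rps6 from -0.00731 to 0.18. The cause of these changes was not tested.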
